A study of Mus musculus with 6 samples.

Results

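The genes described here are 10 components of the bone morphogenetic protein (BMP) pathway, of 53379 genes counted: the ligand genes Bmp2, Bmp4 and Bmp8b, the receptor genes Bmpr1a and Bmpr2, the target genes Id1, Id2 and Id3, and the inhibitory SMAD genes Smad6 and Smad7. They were taken by name, by matching the gene IDs of the files to mouse GENCODE symbols, and all 10 passed the filter on low counts. BMP ligands are secreted dimers that join a type I and a type II receptor kinase; the type I receptor then phosphorylates SMAD1, SMAD5 or SMAD9, which enter the nucleus with SMAD4. The Id genes are classical direct targets of these SMADs, and Smad6 and Smad7 are targets that feed back to block the receptors. In the small intestine BMP activity is high in the villus and low at the crypt base, where antagonists from the surrounding stroma keep it down, and loss of BMP signalling expands stem and progenitor cells.

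RNA was measured in intestinal stem cells of adult C57BL/6 mice. Crypts came from the upper small intestine, and the cells brightest for the Lgr5-EGFP reporter were sorted. Lgr5 is an R-spondin receptor that marks the cycling stem cells of the crypt base. The Klf5-KO group (3 libraries) carried Lgr5-EGFP-IRES-CreERT2 and Rosa-tdTomato and was Klf5fl/fl. The Lgr5 allele that carries EGFP also drives the tamoxifen-activated Cre meant to delete Klf5, a Kruppel-like zinc finger factor. The control group (3 libraries) carried Lgr5-EGFP-IRES-CreERT2 and Rosa-tdTomato with no floxed Klf5, and both groups received tamoxifen on consecutive days, so that Cre, the fluorescent reporters and the drug were shared. The labels do not say whether each library was a separate mouse, how long after tamoxifen cells were taken, or whether the tdTomato mark of Cre activity was used in the sort. P-values therefore measure only the spread between these libraries, which may be technical.

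Libraries held 61563625 to 77666540 counts. Klf5 itself went against the labels, at 892 ± 23.1 CPM (counts scaled to the depth of each library) in the libraries labelled Klf5-KO and 513 ± 33.1 CPM in those labelled control (SD, n = 3 each; log2 fold change 0.80, SE 0.10, adjusted p = 0.00063, edgeR). Gene counts are summed over all exons, so reads of the floxed part cannot be told from the rest, and they do not show whether it was deleted. Directions compare the libraries labelled Klf5-KO with those labelled control. A list of 10 genes of the sorted cells held 6 of the crypt base (Lgr5, Olfm4, Ascl2, Smoc2, Axin2 and Sox9) and 4 of epithelium in general (Epcam, Cdh1, Krt8 and Vil1). All 10 were detected, and the 6 crypt base genes fell together with Cdh1 and Krt8. Their summed CPM was 5269 to 6822 in the libraries labelled Klf5-KO and 11071 to 13787 in those labelled control, and most of that difference was Olfm4, at 2202 ± 620 CPM in the libraries labelled Klf5-KO and 6891 ± 1211 CPM in those labelled control (SD, n = 3 each). Control replicate 3 stood apart from the other controls by its Paneth cell markers, and results are given without it where it matters. The summed CPM of 10 such markers was 17321 in it, against 1599 and 1851 in control replicates 1 and 2. In the libraries labelled Klf5-KO the sum was 7993 to 9994, so leaving out control replicate 3 leaves the groups fully apart in these markers. In sorted bulk samples fewer cells of a type and less RNA per cell cannot be told apart.

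Among the ligand genes Bmp2 and Bmp4 rose and Bmp8b fell. Among the target genes Id1 and Id2 fell, and Bmpr1a, Bmpr2, Id3, Smad6 and Smad7 did not pass the test. That is 2 genes higher and 3 lower of 10 (edgeR's quasi-likelihood test, Benjamini-Hochberg adjusted p under 0.05 over 19339 genes), while 25.8% of all tested genes were called, 13.3% higher and 12.5% lower. The 10 genes were chosen with earlier results of these data known, so their count was given no test of its own. The median log2 fold change of the 10 genes was 0.06, against -0.01 over all tested genes. In 6 of the 10 the CPM of the groups did not overlap, 3 with Klf5-KO above and 3 below, where 43.2% of all tested genes showed no overlap, 22.2% above and 21% below. The same 5 calls held, in the same direction, with each library left out in turn.

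**Figure D1:**
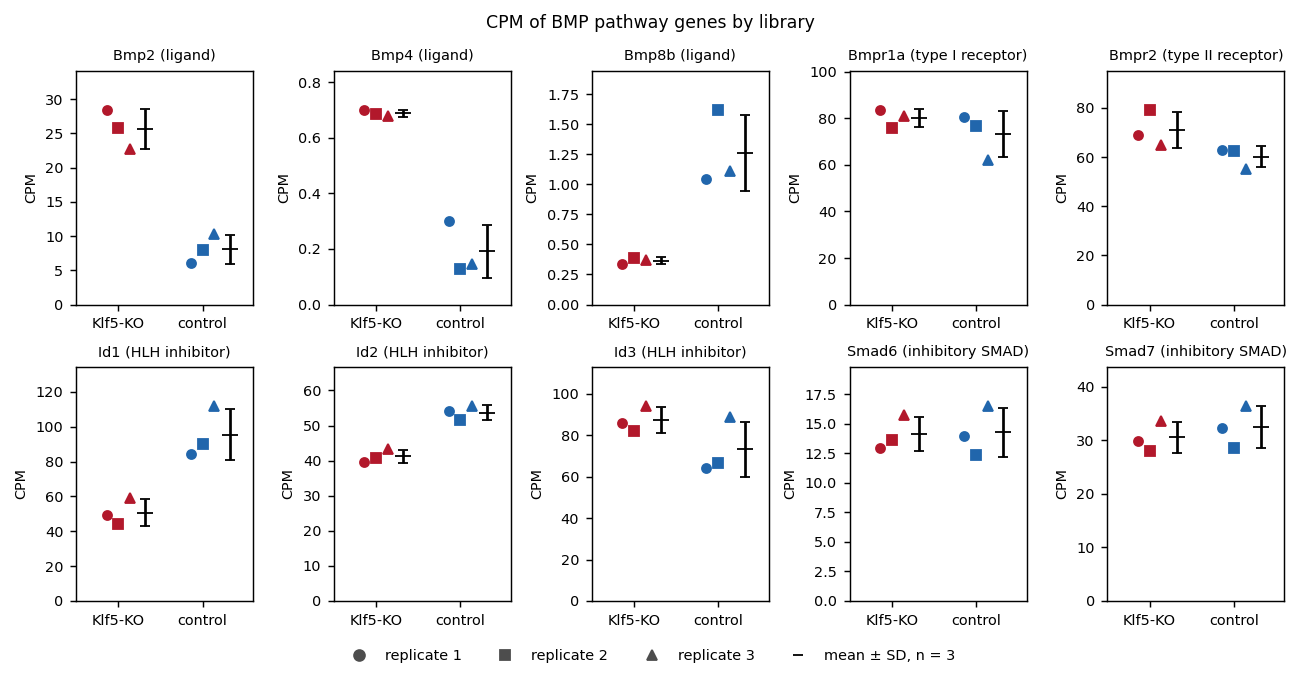
CPM of the 10 genes in each library, with the mean and SD of each group (n = 3). Each axis starts at 0. The libraries labelled Klf5-KO lie above all those labelled control for Bmp2, Bmp4 and, narrowly, Bmpr2 and below them all for Bmp8b, Id1 and Id2, while the groups overlap for Bmpr1a, Id3, Smad6 and Smad7.

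Bmp2 had the smallest adjusted p among the ligand genes. The gene (ENSMUSG00000027358.6, mm10 chromosome 2, 133552159 to 133562885, plus strand, 3 exon blocks) encodes a BMP ligand that is made by the differentiating epithelium of the villus among other tissues. It stood at 28.5, 25.8 and 22.7 CPM in Klf5-KO replicates 1, 2 and 3, against 6.05, 7.91 and 10.3 CPM in control replicates 1, 2 and 3. The groups did not overlap, and the lowest Klf5-KO value was above the highest control value, that of replicate 3. The fold change was 3.18 (log2 fold change 1.67, SE 0.18, adjusted p = 0.00031, edgeR). Without control replicate 3 the log2 fold change was 1.88.

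Markers of villus enterocytes moved with Bmp2. Of 10 such markers 6 rose and the other 4 did not pass the same edgeR test. Their summed CPM was 2910, 1732 and 2367 in Klf5-KO replicates 1, 2 and 3, against 1130, 1051 and 1375 in control replicates 1, 2 and 3. Klf5-KO replicate 2 had the lowest enterocyte sum of its group and the middle Bmp2 level. None of the 10 enterocyte markers was at 0 in any library, and the part of these cells in the Bmp2 difference was not tested.

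**Figure D2:**
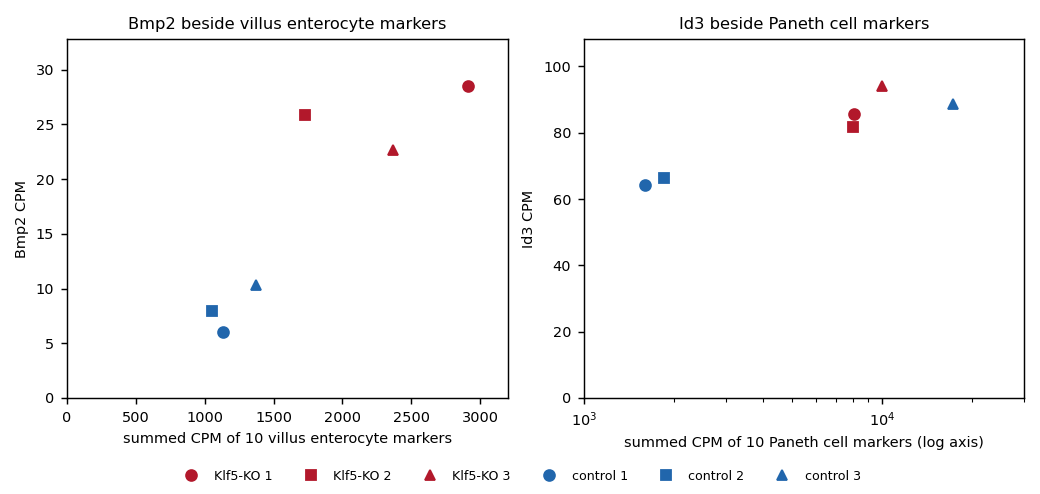
Left, Bmp2 CPM against the summed CPM of 10 villus enterocyte markers; right, Id3 CPM against the summed CPM of 10 Paneth cell markers on a log axis. Each point is 1 library. The libraries labelled Klf5-KO lie highest on both axes on the left, and on the right control replicate 3 has the highest Paneth sum and an Id3 level within the Klf5-KO range, while control replicates 1 and 2 lie lower on both axes.

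Bmp4 rose as well, on few reads. This gene (ENSMUSG00000021835.15, chromosome 14, 46383520 to 46390669, minus strand, 4 exon blocks) encodes the ligand that stromal cells beneath the intestinal epithelium make in quantity. It had 48, 44 and 49 counts in Klf5-KO replicates 1, 2 and 3, against 22, 10 and 9 counts in control replicates 1, 2 and 3. In CPM these were 0.688 ± 0.0124 in the libraries labelled Klf5-KO and 0.192 ± 0.0955 in those labelled control (SD, n = 3 each). The groups did not overlap. The exact Poisson 95% interval was 35.4 to 63.6 counts in Klf5-KO replicate 1 and 13.8 to 33.3 counts in control replicate 1, but the interval of Klf5-KO replicate 2 overlapped slightly with that of control replicate 1, and these intervals cover counting error only. On the log2 scale the difference was 1.82 (SE 0.37, edgeR's adjusted p = 0.0066). With 1 library left out it was highest, 2.31, without control replicate 1, and lowest without control replicate 2 (adjusted p = 0.026). Where CPM above 1 was required in 3 libraries Bmp4 was not tested.

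Stromal markers were low but not all absent. Of 10 such markers Col3a1, Dcn, Lum, Pdgfra, Acta2 and Des had at most 8 counts in any library. Col1a1 had 19 to 44 counts per library, at 0.331 ± 0.0349 CPM in the libraries labelled Klf5-KO and 0.492 ± 0.204 CPM in those labelled control (SD, n = 3 each; adjusted p = 0.31, edgeR). Col1a2, the gene of the other type I collagen chain, rose with Bmp4 and stood at 0.497, 0.561 and 0.870 CPM in Klf5-KO replicates 1, 2 and 3, against 0.0687, 0.0130 and 0.0484 CPM in control replicates 1, 2 and 3. Pdgfrb, a receptor gene of pericytes, fell to 0.467 ± 0.0782 CPM in the libraries labelled Klf5-KO, against 2.46 ± 0.538 CPM in those labelled control, and Myh11 fell as well. With 1 library left out 1 or 2 stromal markers were called lower and 1 higher. The summed CPM of all 10 was at most 1.98 in the libraries labelled Klf5-KO and 2.98 to 4.07 in those labelled control. The part of stromal RNA in the Bmp4 counts was not tested.

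Bmp8b was the ligand gene that fell. It (ENSMUSG00000002384.2, chromosome 4, 123105165 to 123132099, plus strand, 10 exon blocks) encodes a less studied BMP ligand known in mice from germ cells and brown fat. It had 23, 25 and 27 counts in Klf5-KO replicates 1, 2 and 3, against 76, 125 and 69 counts in control replicates 1, 2 and 3. This corresponds to 0.366 ± 0.0274 CPM in the libraries labelled Klf5-KO and 1.26 ± 0.315 CPM in those labelled control (SD, n = 3 each), which was 3.44-fold lower in the libraries labelled Klf5-KO (log2 fold change -1.78, SE 0.28, adjusted p = 0.0019, edgeR). The groups did not overlap, and control replicate 2 was the highest library.

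Bmp8b has a near-identical copy, Bmp8a, and reads that match both may not have been counted, so the level of either gene and of their sum is uncertain. Bmp8a stood at 0.923 ± 0.190 CPM in the libraries labelled Klf5-KO and 1.54 ± 0.370 CPM in those labelled control (log2 fold change -0.73, SE 0.27, adjusted p = 0.071, edgeR). Both copies together had 101, 79 and 84 counts in Klf5-KO replicates 1, 2 and 3, against 183, 218 and 189 counts in control replicates 1, 2 and 3. The sum did not overlap between the groups. Exons of Bmp8b also lie opposite Ppie and Gm17244 on the other strand, which the stranded counting kept apart.

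The start regions of the ligand genes that were called in opposite directions, Bmp4 and Bmp8b, are shown because KLF5 belongs to a family that binds CACCC and GC boxes. Sequences are RefSeq windows (GRCm38.p6, the assembly also named mm10) from 250 bases before to 50 bases after the start, 5′ to 3′ along the gene, and the table held 7 of the 10 genes. Capitals mark the KLF motif CCNCNCCC, read on either strand.
Bmp4 (chr14:46390620-46390919, minus strand): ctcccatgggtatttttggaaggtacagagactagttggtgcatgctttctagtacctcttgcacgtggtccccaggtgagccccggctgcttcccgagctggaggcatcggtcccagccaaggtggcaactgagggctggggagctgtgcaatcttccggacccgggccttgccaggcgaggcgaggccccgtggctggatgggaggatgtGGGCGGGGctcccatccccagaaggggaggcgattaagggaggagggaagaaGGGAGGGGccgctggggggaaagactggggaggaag
Bmp8b (chr4:123104911-123105210, plus strand): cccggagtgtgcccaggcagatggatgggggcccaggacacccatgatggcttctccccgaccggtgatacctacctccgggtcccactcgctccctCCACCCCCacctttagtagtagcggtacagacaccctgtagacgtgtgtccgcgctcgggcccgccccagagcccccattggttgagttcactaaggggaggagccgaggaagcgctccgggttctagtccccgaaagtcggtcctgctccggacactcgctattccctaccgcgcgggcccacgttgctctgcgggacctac
Bmp4 held 2 matches, at window positions 213 and 265 counted from 1 at the 5′ end, and Bmp8b held 1, at position 98. All 7 windows of these genes held at least 1 match, as did 49.5% of 32851 promoter windows of the same length, and the 7 windows were 59.3 to 79.3% G and C against a median of 52.7% over all windows. A match is a description of letters and not a bound site.

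The receptors did not pass the test. Bmpr1a (ENSMUSG00000021796.15, chromosome 14, 34410734 to 34503341, minus strand, 14 exon blocks), the main type I receptor for BMP2 and BMP4 in the gut epithelium, stood at 83.8, 76.0 and 81.1 CPM in Klf5-KO replicates 1, 2 and 3. In control replicates 1, 2 and 3 it stood at 80.6, 76.9 and 62.1 CPM, so that only control replicate 3 lay apart. Its log2 fold change was 0.13, with a 95% confidence interval of -0.11 to 0.37 (adjusted p = 0.40, edgeR). Bmpr2, the type II receptor gene (ENSMUSG00000067336.6, chromosome 1, 59763400 to 59879014, plus strand, 13 exon blocks), stood at 68.9, 79.3 and 65.1 CPM in Klf5-KO replicates 1, 2 and 3, against 63.0, 62.3 and 55.1 CPM in control replicates 1, 2 and 3. Here the groups just failed to overlap, and the log2 fold change was 0.24 (95% confidence interval 0.02 to 0.47, adjusted p = 0.11, edgeR).

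Among the other receptors and co-receptors, 8 of 10 listed genes were tested, 1 rose and 2 fell (37.5% called, against 25.8% of all tested genes). The activin and BMP type II receptor gene Acvr2a rose to 37.8 ± 0.819 CPM in the libraries labelled Klf5-KO, against 26.5 ± 2.42 CPM in those labelled control (log2 fold change 0.51, SE 0.09, adjusted p = 0.0043, edgeR). Its relative Acvr2b fell (log2 fold change -0.38, adjusted p = 0.034), a call that was lost with any 1 library left out (adjusted p = 0.058 to 0.15) and when genes of low counts were kept (0.069). Rgmb, which encodes a membrane-anchored BMP co-receptor, fell to 160 ± 23.7 CPM, against 233 ± 31.4 CPM in the libraries labelled control (log2 fold change -0.54, SE 0.13, adjusted p = 0.017, edgeR). Leaving out replicate 2 of either group ended the Rgmb call (adjusted p = 0.059 with the Klf5-KO one left out and 0.057 with the control one). Bmpr1b, the other BMP type I receptor gene of this kind, had 0 counts in all 6 libraries, which allows at most 0.0389 to 0.0484 CPM (3 counts per library).

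Id1 fell the most among the target genes. Id proteins have a helix-loop-helix but no DNA-binding basic region, and they hold E proteins in inactive dimers. Id1 (ENSMUSG00000042745.9, chromosome 2, 152736251 to 152737410, plus strand, 1 exon block) stood at 49.2, 44.1 and 58.9 CPM in Klf5-KO replicates 1, 2 and 3, against 84.4, 89.8 and 112 CPM in control replicates 1, 2 and 3. Every library labelled Klf5-KO lay below every one labelled control. On the log2 scale Id1 fell by 0.91 (SE 0.14, edgeR's adjusted p = 0.0016), with log2 fold changes from -1.03 to -0.78 when 1 library was left out. The crypt base genes named above fell too. Enteroendocrine markers, of which 7 of 10 fell (3 without Klf5-KO replicate 1), summed to 102 to 113 CPM in the libraries labelled Klf5-KO and 163 to 326 CPM in those labelled control. All 10 markers of each list were detected, and their part in the Id1 and Id2 differences was not tested.

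Id2 fell by less. The gene (ENSMUSG00000020644.9, chromosome 12, 25093799 to 25097140, minus strand, 3 exon blocks) stood at 39.6, 40.7 and 43.2 CPM in Klf5-KO replicates 1, 2 and 3, against 54.0, 51.4 and 55.6 CPM in control replicates 1, 2 and 3. The values were tight within each group and did not overlap. On the log2 scale it fell by 0.38 (SE 0.08, edgeR's adjusted p = 0.0088).

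Id3 did not pass the test over all 6 libraries. It (ENSMUSG00000007872.3, chromosome 4, 136143497 to 136145755, plus strand, 4 exon blocks) stood at 85.7, 81.8 and 94.0 CPM in Klf5-KO replicates 1, 2 and 3, against 64.4, 66.4 and 88.6 CPM in control replicates 1, 2 and 3. Control replicate 3 lay within the Klf5-KO range and the other controls below it. The log2 fold change was 0.25 (95% confidence interval -0.03 to 0.54, adjusted p = 0.17, edgeR). Without control replicate 3 it was 0.41 and Id3 was called higher (adjusted p = 0.0082), and with Klf5-KO replicate 2 left out as well it was 0.46 (adjusted p = 0.0049).

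The start windows of 3 target genes are shown next, with Id2, which was called lower, before Id3 and Smad6, which were not called. Capitals mark CCNCNCCC on either strand, the SMAD motif GGCGCC, and the palindromic SMAD box GTCTAGAC.
Id2 (chr12:25096043-25096342, minus strand): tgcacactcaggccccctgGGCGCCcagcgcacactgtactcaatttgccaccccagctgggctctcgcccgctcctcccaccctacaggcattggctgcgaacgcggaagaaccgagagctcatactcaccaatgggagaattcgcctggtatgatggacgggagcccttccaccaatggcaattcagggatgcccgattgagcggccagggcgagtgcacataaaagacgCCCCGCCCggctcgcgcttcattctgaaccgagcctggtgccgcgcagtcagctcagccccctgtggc
Id3 (chr4:136143572-136143871, plus strand): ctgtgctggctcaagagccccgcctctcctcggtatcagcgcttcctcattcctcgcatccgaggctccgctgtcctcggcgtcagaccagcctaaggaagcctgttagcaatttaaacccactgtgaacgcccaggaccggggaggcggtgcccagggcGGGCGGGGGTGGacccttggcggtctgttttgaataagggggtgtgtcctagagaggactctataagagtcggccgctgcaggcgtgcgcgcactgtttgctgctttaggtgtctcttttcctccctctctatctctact
Smad6 (chr9:64022010-64022309, minus strand): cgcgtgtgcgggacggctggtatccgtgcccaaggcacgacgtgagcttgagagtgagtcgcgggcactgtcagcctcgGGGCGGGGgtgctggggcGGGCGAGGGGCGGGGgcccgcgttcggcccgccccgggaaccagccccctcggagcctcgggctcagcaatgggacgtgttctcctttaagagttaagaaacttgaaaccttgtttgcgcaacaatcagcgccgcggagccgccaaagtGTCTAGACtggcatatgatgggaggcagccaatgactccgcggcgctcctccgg
Both strands were searched, and the KLF and SMAD motifs did not overlap each other in these windows. Id2 held GGCGCC at window position 20 and 1 KLF match at position 233. Id3 held 2 overlapping KLF matches, at positions 161 and 165, and neither SMAD motif. Smad6 held 3 KLF matches and the SMAD box, at position 247. The windows of Id2 and Id3 lie within the spans counted for these genes. GGCGCC was present in 11.9% and GTCTAGAC in 0.213% of the 32851 windows. No match says only that these letters are not in the window.

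Paneth cell markers varied between the libraries, and so did Id3. The summed CPM of 10 Paneth markers was 8049, 7993 and 9994 in Klf5-KO replicates 1, 2 and 3, against 1599, 1851 and 17321 in control replicates 1, 2 and 3. Control replicates 1 and 2, with the lowest Paneth sums, also had the lowest Id3. All 10 Paneth markers were detected, and the CPM of each overlapped between the groups. The part of Paneth cell RNA in the Id3 values was not tested.

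The make-up of the Id transcripts was read per length. TPM values (counts per kilobase of exon, scaled to a fixed total per library) of Id1, Id2 and Id3 summed to 263 ± 29.8 in the libraries labelled Klf5-KO and 370 ± 14.8 in those labelled control (SD, n = 3 each). TPM had no TMM scaling, and a fixed total means that abundant short transcripts lower the TPM of all other genes. The Paneth gene Defa24 alone had 35068 TPM in control replicate 3, against 3603 and 4734 in control replicates 1 and 2. The sums and their SD therefore depend on such transcripts, while shares and ratios within a library do not. Id1 made up 39.9 ± 2.05% of the sum in the libraries labelled Klf5-KO and 56.6 ± 0.896% in those labelled control, and Id3 made up 44.6 ± 1.10% in the libraries labelled Klf5-KO and 28.0 ± 1.10% in those labelled control. The TPM ratio of Id1 to Id3 was 0.886, 0.833 and 0.968 in Klf5-KO replicates 1, 2 and 3, against 2.02, 2.09 and 1.95 in control replicates 1, 2 and 3. Control replicate 3, which set Id3 apart, did not stand apart in this ratio. Ratios between the 3 Id genes share members and are not independent of each other or of the calls above. No other gene pairs were read beside them, so the share of pairs that keep the groups apart is not known. Of single tested genes 43.2% did. Over the 3 pairs of Id genes the ratios did not overlap between the groups. Each gave p = 0.1 in a two-sided exact permutation test (also 0.1 after Benjamini-Hochberg adjustment). That is the smallest p that 3 against 3 libraries allow. Groups that do not overlap always give it, so the test adds nothing to the lack of overlap.

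**Figure D3:**
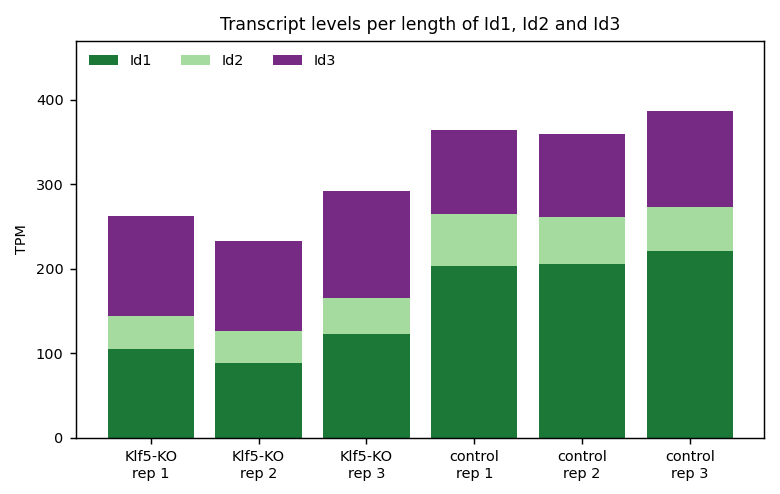
Stacked TPM of Id1, Id2 and Id3 in each library, on an axis from 0. Id1 is the largest part in the 3 control libraries, and Id3 is the largest part in the 3 libraries labelled Klf5-KO.

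Smad6 and Smad7, which encode feedback inhibitors of the receptors, showed no detectable difference. Smad6 (ENSMUSG00000036867.7, chromosome 9, 63953076 to 64022059, minus strand, 6 exon blocks) had 13.0, 13.7 and 15.7 CPM in Klf5-KO replicates 1, 2 and 3, against 13.9, 12.4 and 16.5 CPM in control replicates 1, 2 and 3. The log2 fold change was -0.02, with a 95% confidence interval of -0.32 to 0.29 (adjusted p = 0.95, edgeR). Smad7 (ENSMUSG00000025880.11, chromosome 18, 75367529 to 75395935, plus strand, 6 exon blocks), which also blocks TGF-beta receptors, had 29.9, 28.1 and 33.6 CPM in Klf5-KO replicates 1, 2 and 3, against 32.3, 28.6 and 36.4 CPM in control replicates 1, 2 and 3. Its log2 fold change was -0.09, with a 95% confidence interval of -0.34 to 0.17 (adjusted p = 0.61, edgeR). Both intervals exclude a fall as large as that of Id1.

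Levels were ordered per length, in TPM, with the limit given above for comparing TPM between libraries. In the libraries labelled Klf5-KO Id3 came first (117 ± 10.5 TPM), then Id1 (105 ± 17.3), Id2 (40.5 ± 2.12), Bmpr1a (30.4 ± 2.42), Bmp2 (17.3 ± 2.22), Smad7 (16.2 ± 1.79), Smad6 (10.6 ± 1.11), Bmpr2 (9.47 ± 0.741), Bmp4 (0.734 ± 0.0319) and Bmp8b (0.226 ± 0.0109). The values of Id3 and Id1, of Bmp2 and Smad7 and of Smad6 and Bmpr2 overlapped there, and the other neighbours did not. In the libraries labelled control the order was Id1 (210 ± 10.1 TPM), Id3 (104 ± 8.29), Id2 (56.6 ± 4.76), Bmpr1a (30.0 ± 6.72), Smad7 (18.4 ± 1.58), Smad6 (11.4 ± 1.01), Bmpr2 (8.66 ± 1.43), Bmp2 (5.76 ± 0.960), Bmp8b (0.839 ± 0.237) and Bmp4 (0.225 ± 0.129), with no overlap between neighbours. Bmp2 thus had rank 5 of 10 in the libraries labelled Klf5-KO and rank 8 in those labelled control.

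**Figure D4:**
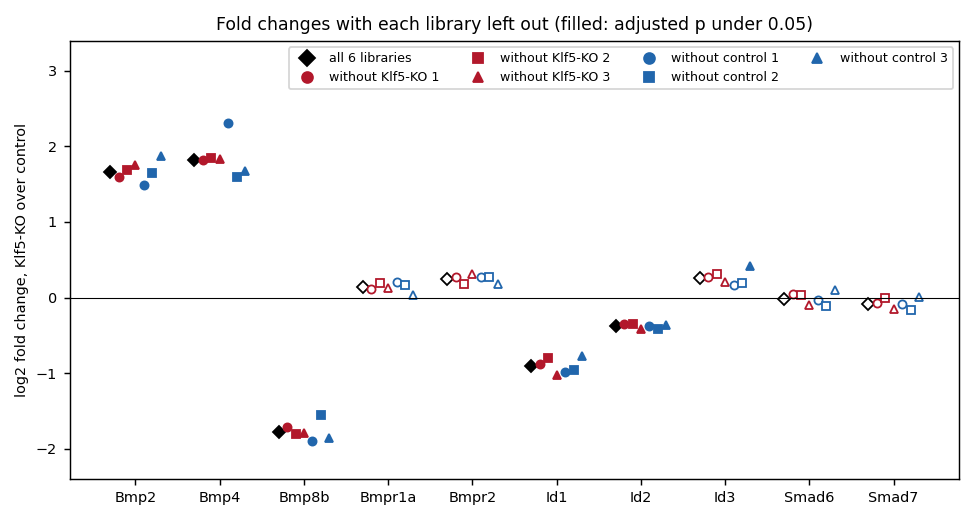
Log2 fold changes, Klf5-KO over control, of the 10 genes with all 6 libraries and with each library left out; filled marks have an adjusted p under 0.05. The marks of Bmp2, Bmp4, Bmp8b, Id1 and Id2 are filled throughout, and Id3 is filled without control replicate 3 alone.

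The rest of the pathway was read from lists chosen by function. Of 70 other listed genes 47 were tested, of which 6 rose and 11 fell, beside 13.3% higher and 12.5% lower over all tested genes, with a median log2 fold change of 0.02. Of 11 other ligand genes 4 were tested and 1, Bmp3, fell. Bmp3, which encodes an atypical BMP that opposes the others, stood at 9.90 ± 1.08 CPM in the libraries labelled Klf5-KO and 22.2 ± 5.73 CPM in those labelled control (SD, n = 3 each; log2 fold change -1.17, SE 0.18, adjusted p = 0.0019, edgeR). Bmp7 was at 18.1 ± 0.714 CPM in the libraries labelled Klf5-KO and 21.9 ± 2.23 CPM in those labelled control (adjusted p = 0.081). Bmp5 had 0 counts in all 6 libraries.

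Of 15 secreted antagonists and modulators 9 were not tested. Grem1, Chrdl1 and Cer1 had 0 counts in all 6 libraries, and Nog, the noggin gene, had at most 5. Of the 6 tested, 1 rose and 3 fell (66.7% called, against 25.8% of all tested genes). Fstl1, a follistatin-like gene whose protein binds BMP4, fell to 5.24 ± 0.657 CPM in the libraries labelled Klf5-KO, against 19.8 ± 4.67 CPM in those labelled control (log2 fold change -1.92, SE 0.19, adjusted p = 0.00016, edgeR). Fstl3, an activin binder, and Nbl1, a DAN family antagonist, fell as well (log2 fold changes -1.28 and -1.66). The gene that rose was Fst, follistatin (log2 fold change 1.05, adjusted p = 0.044, edgeR), which was singled out after its values were seen. It stood at 0.760 ± 0.273 CPM in the libraries labelled Klf5-KO and 0.368 ± 0.0592 CPM in those labelled control, and the call was lost under 10 of 16 alternatives. These included DESeq2 (adjusted p = 0.058), limma-voom (0.056), a replicate block (0.078) and any 1 library left out other than control replicate 3 (0.058 to 0.15).

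Among 11 SMAD transducers and regulators 1 rose and 1 fell (18.2% called, against 25.8% of all tested genes). Smad9, the third BMP-regulated SMAD and itself a BMP target, rose to 6.64 ± 0.899 CPM in the libraries labelled Klf5-KO, against 2.31 ± 0.769 CPM in those labelled control (log2 fold change 1.52, SE 0.24, adjusted p = 0.0021, edgeR). The more abundant Smad1 stood at 93.5 ± 2.74 CPM in the libraries labelled Klf5-KO and 79.8 ± 4.18 CPM in those labelled control (adjusted p = 0.062, edgeR). Smad1 was called without control replicate 3 (adjusted p = 0.027). Without that library the Paneth marker sums lay apart between the groups as well, and their part in the Smad1 difference was not tested. Smad5 and Smad4 were not called. The ubiquitin ligase gene Smurf1 fell (log2 fold change -0.29, adjusted p = 0.030), a call lost with replicate numbers as a block (adjusted p = 0.053), when genes of low counts were kept (0.11) and without any 1 library other than control replicate 3 (0.062 to 0.13).

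Other BMP and SMAD targets moved both ways. Of 7 tested genes of the 10 listed, 2 rose, Smad9 (also in the SMAD list) and the homeobox gene Msx1, and 1 fell, Atoh8. On so few genes that is 42.9% called, against 25.8% of all tested genes. Msx1 stood at 4.85 ± 0.689 CPM in the libraries labelled Klf5-KO and 2.30 ± 0.946 CPM in those labelled control (log2 fold change 1.08, SE 0.28, adjusted p = 0.019, edgeR); leaving out Klf5-KO replicate 2 (adjusted p = 0.060), control replicate 1 (0.056) or control replicate 2 (0.062) ended its call. Atoh8, a bHLH factor gene, stood at 4.74 ± 0.656 CPM in the libraries labelled Klf5-KO and 8.47 ± 1.89 CPM in those labelled control (log2 fold change -0.84, SE 0.19, adjusted p = 0.012, edgeR), and leaving out Klf5-KO replicate 1 (adjusted p = 0.056) or control replicate 2 (0.051) ended its call. Bambi, a decoy receptor gene induced by BMP, had 12.9, 14.1 and 16.8 CPM in Klf5-KO replicates 1, 2 and 3, against 6.51, 6.77 and 14.2 CPM in control replicates 1, 2 and 3 (adjusted p = 0.10, edgeR). It was singled out after its values were seen. As with Id3, control replicate 3 lay with the libraries labelled Klf5-KO, and without it Bambi was called higher (log2 fold change 1.13, adjusted p = 0.0015). Without that library the Paneth marker sums also lay apart between the groups, and their part in the Bambi difference was not tested. Bambi was also called higher on all 6 libraries with a replicate block (adjusted p = 0.023), with limma-voom (0.048) and when genes of low counts were kept (0.0023).

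In the TGF-beta branch 2 of 10 tested genes rose and 1 fell (30.0% called, against 25.8% of all tested genes). The activin type I receptor gene Acvr1b fell to 40.6 ± 6.12 CPM in the libraries labelled Klf5-KO, against 63.5 ± 5.51 CPM in those labelled control (log2 fold change -0.64, SE 0.12, adjusted p = 0.0049, edgeR). The receptor gene Tgfbr2 rose (log2 fold change 0.36, adjusted p = 0.014), a call lost without Klf5-KO replicate 3 (adjusted p = 0.053). Tgfb3, a ligand gene of at most 0.470 CPM in any library, rose by 1.33 on the log2 scale (adjusted p = 0.028), and its call was lost with DESeq2 (adjusted p = 0.069) and without any 1 library other than control replicate 3 (adjusted p = 0.055 to 0.097).

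The E proteins that Id proteins bind were also read. Of 3 genes 2 fell, where 12.5% of all tested genes did. Tcf3, which encodes E12 and E47, stood at 102 ± 3.74 CPM in the libraries labelled Klf5-KO and 168 ± 5.21 CPM in those labelled control (log2 fold change -0.73, SE 0.08, adjusted p = 0.00026, edgeR). Tcf4, the gene of E2-2, fell (log2 fold change -0.34, adjusted p = 0.027), a call lost without any 1 library other than control replicate 2 (adjusted p = 0.056 to 0.094) and when genes of low counts were kept (0.067). Tcf12 was at 185 ± 4.41 CPM in the libraries labelled Klf5-KO and 169 ± 4.32 CPM in those labelled control (adjusted p = 0.25).

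**Figure D5:**
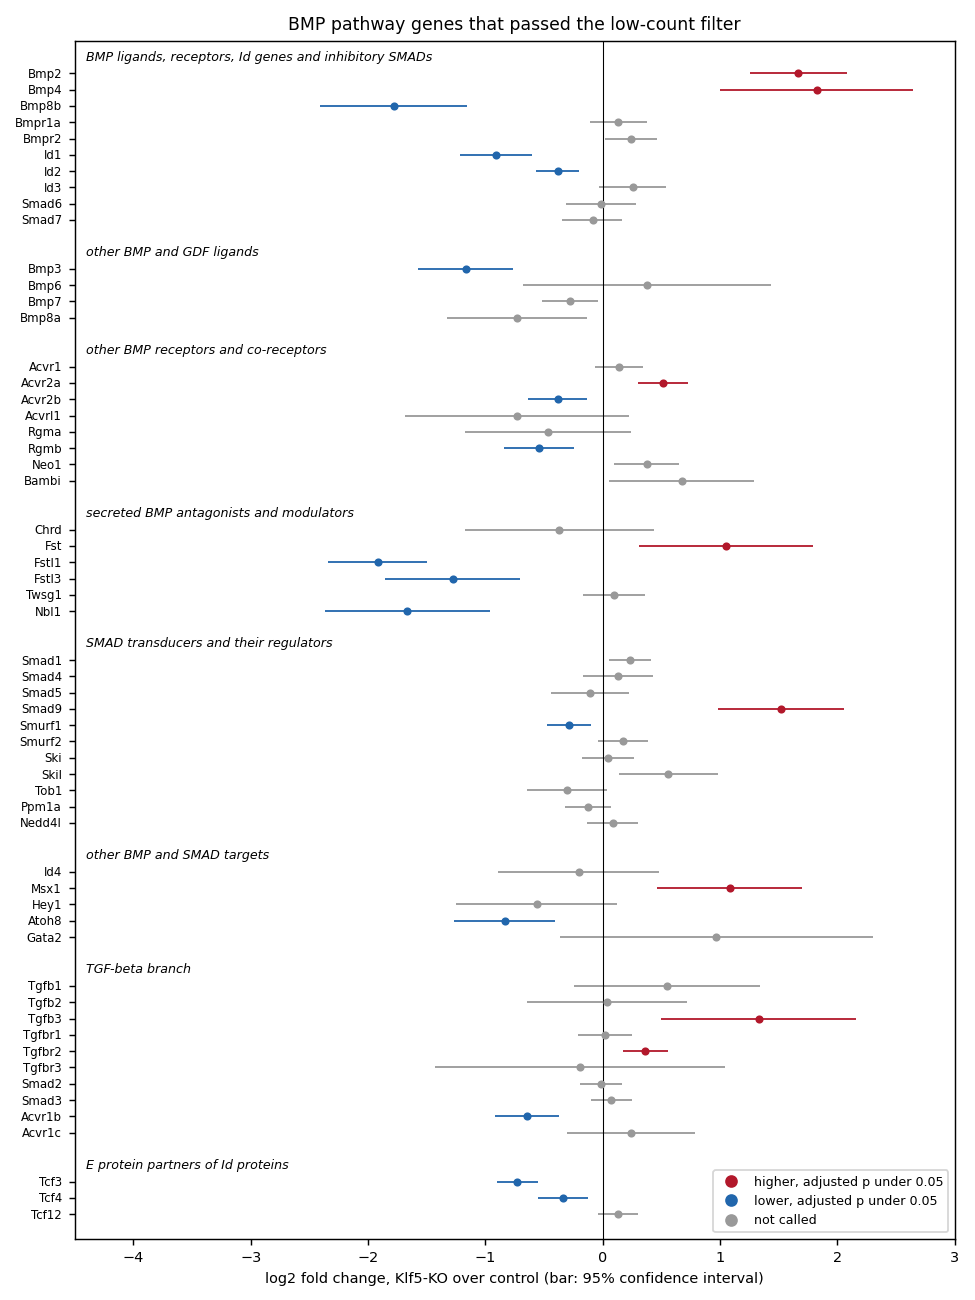
Log2 fold changes, Klf5-KO over control, with 95% confidence intervals, of the 10 genes and the other pathway genes that passed the low-count filter, by function; colour marks an adjusted p under 0.05. Bmp2 and Bmp4 lie to the right with Smad9 and Msx1, and Id1 and Id2 lie to the left with Bmp8b, Bmp3, Fstl1 and Tcf3.

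The genes with the pattern most like that of Id1 were sought over the 6 libraries among 9242 other genes that averaged 10 CPM or more. By the root mean square difference of log2 CPM, each gene centred on its own mean, the closest were Mettl7a1 (0.06), Ckmt1 (0.09), Frat2 (0.09), Pheta1 (0.10) and Grtp1 (0.10). Their log2 fold changes ran from -0.98 in Ckmt1 to -0.80 in Pheta1, beside -0.91 in Id1. The list is a description of likeness over 6 libraries.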

How the data were processed

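RNA sequencing gave 6 libraries of Lgr5-EGFP-high intestinal stem cells, 3 labelled Klf5-KO and 3 labelled control. The authors deposited raw integer counts for each gene. Per the file headers these came from featureCounts (1.4.3-p1) with GENCODE vM16 and the setting for reversely stranded reads. STAR 2.5.2a, mm10 and DESeq2 1.18.1 are named in the submitters' processing notes. No setting for reads that map to several places stands in the header command, which bears on Bmp8a and Bmp8b.

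Symbols came from GENCODE vM21 and matched 53274 of 53379 IDs. Counts were filtered with filterByExpr, scaled with TMM and tested in R 4.3.3 with edgeR 4.0.16 on a model of group alone, and p-values were adjusted by Benjamini-Hochberg over 19339 genes. The SE is the size of the log2 fold change over the square root of F, and 95% confidence intervals use its degrees of freedom. TPM was computed from counts and exon length, without TMM scaling. A pseudocount of 0.1 CPM was used for the likeness to Id1. The fit was run on simulated counts with far fewer changed genes than were called here and no variation shared between genes. That run therefore does not show how the fit performs on these data. Every pair of libraries differed by more than counting noise (chi-square over its degrees of freedom 40.3 or more). Depth was 61563625 to 77666540 counts per library, and floors and Poisson intervals cover counting error only.

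The genes and lists were chosen with earlier results of these data known. Named besides the 10 genes are, per list, up to 3 called genes with the smallest adjusted p, and the 5 genes most like Id1. Bmp7, Bmp8a, Smad1, Smad4, Smad5 and Tcf12, given for context, were chosen after their values were seen, as were Bambi and Fst. Alternatives were 2 other scalings (RLE, upper quartile), leaving out mitochondrial and rRNA-like genes, CPM above 1 in 3 libraries or no filter on low counts, robust dispersion, DESeq2 1.42.0, limma-voom (limma 3.58.1), a replicate block, a threshold of 0.01 and libraries left out. ChIP-seq data, which the series' design text names, were not analysed here.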

Additional observations from a re-analysis of the deposited data

How the results depend on the processing

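Counts of called genes, including those of the marker lists, and the log2 fold changes of the genes named from the pathway lists were recomputed under 17 alternatives (16 for Bmp4, Nbl1, Tgfb3 and Fst, which were not tested where CPM above 1 was required). None of these changed direction past the threshold. The Id ratios, which no scaling changes, and the orders of levels were not recomputed. The 3 genes called lower (Bmp8b, Id1 and Id2) numbered 3 under all of them, and those called higher numbered 2 except where CPM above 1 was required in 3 libraries (1 called, Bmp4 not being tested) and where control replicate 3 was left out alone or with Klf5-KO replicate 2 (Id3 added). All 84 alternative values of the 5 called genes stayed past the threshold in the same direction; Smad6 and Smad7 varied in sign without a call.

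Counts over all genes were 2581 higher and 2413 lower. With 1 library left out they ranged from 1605 to 2740 higher and from 1467 to 2664 lower; at an adjusted p under 0.01 they were 1226 and 1118. Leaving out Klf5-KO replicate 1 gave 1605 higher and leaving out control replicate 2 gave 1689, and lower counts were 1467, 1606 and 1526 without Klf5-KO replicates 1, 2 and 3. Other pathway genes numbered 6 higher and 11 lower. With 1 library left out these were 3 to 10 higher (3 without Klf5-KO replicate 3, and 10 when the third control was left out) and 7 to 9 lower (7 with any of Klf5-KO replicates 1 and 2 or control replicate 2 left out). With both Klf5-KO replicate 2 and control replicate 3 left out 11 were higher, and at 0.01 there were 2 higher and 6 lower. Fewer libraries entered the fits that left some out; the cause was otherwise not tested. BMP genes numbered 2 to 3 higher and 3 lower with 1 library left out.

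Same-numbered libraries did not deviate together (correlations across genes of -0.11, 0.08 and -0.09 for replicates 1, 2 and 3). Deviations from the mean of only 3 libraries cannot show whether the numbers pair them, and the labels do not say. With the replicate number as a block 2286 genes were higher and 2088 lower, with 2 and 3 of the 10 BMP genes and 7 and 10 of the other pathway genes. Depth limits Bmp4 and Bmp8b, with 9 to 125 counts per library.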
